A study of Homo sapiens with 5 samples.

Results

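The plasminogen activator system was examined in 5 RNA-seq libraries of HEK293T cells through 5 genes, chosen by symbol as the targeted protease with its receptor, its relative and its inhibitors. They were PLAU (uPA, urokinase), PLAT (tissue-type plasminogen activator), PLAUR (the uPA receptor, uPAR), SERPINE2 (protease nexin 1) and SERPINB2 (plasminogen activator inhibitor 2). Of these, 4 were among the 19716 genes with a read in at least 1 library, and SERPINB2 had no read in any of them. HEK293T cells derive from human embryonic kidney and contain SV40 large T antigen. In 4 groups the cells received 5 uPA sgRNAs together with 1 of 4 fusions, dCas9-BFP-DNMT1, -DNMT3A, -DNMT3B or -EGFP. These join a Cas9 that binds but does not cut DNA to a blue fluorescent protein (BFP) and to the catalytic domain of a DNA methyltransferase or to EGFP, each under the PGK promoter. The control group received the plasmid pUC19, without sgRNA and without dCas9. All groups were given 1 ug of plasmid in total with X-tremeGENE 9, and RNA was taken 48 h later. By the labels, RNA came from sorted BFP-positive cells in each group, yet pUC19 carries no BFP gene, so that sorting, sgRNAs and dCas9 cannot be told apart between the control and the 4 fusions. Each group had 1 library, and values for the fusions are listed below in the order DNMT1, DNMT3A, DNMT3B and EGFP. The tests below therefore compare libraries and not conditions, and no difference has a replicate check.

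Plasminogen circulates as an inactive precursor that uPA and tissue-type plasminogen activator cleave to plasmin, a broad protease that dissolves fibrin and acts on matrix around cells. uPA is held at the cell surface by uPAR, and both activators are blocked by serpins, inhibitors that trap their protease and are taken up with it by receptors of the LDL receptor family. In cultured epithelial and tumour cells this system is known for its part in migration and invasion, and the PLAU promoter lies in a CpG island.

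PLAU is a plus-strand gene of chromosome 10, from 75668935 to 75677254 (GRCh37, GENCODE v44), and its canonical transcript starts at 75670890. The guides that brought dCas9 there are shown as they lie on the genome, read 5′ to 3′ on the strand of the guide, because they define what was targeted. The capitals mark the last 5 bases of the guide, next to the PAM, and the PAM itself.
T1: gtgagcgttgcggaaGCACGCGG
T2: gagccgggcgggagaGGGAGGGG
T3: gagtcaaggcgccccGTCCCGGG
T4: gcccggggatctcagGACCGCGG
T5: gggacaggtggacccTGGCCCGG

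T1 matched the plus strand at chr10:75670761-75670780 and T2 at chr10:75670819-75670838, both upstream of the canonical start and in an intron of 2 of the 5 annotated PLAU transcripts. T5 matched the minus strand at chr10:75670920-75670939, in exon 1 of the canonical transcript. T4 on the minus strand at chr10:75670987-75671006 and T3 on the plus strand at chr10:75671093-75671112 lay in the following intron, which ends before exon 2 at 75671283. All 5 sites also fell in an exon of C10orf55, a long non-coding RNA on the opposite strand. Over the autosomes, X and Y, the only other exact match of a guide was that of T2 on chromosome 1 (minus strand, 2249943 to 2249962), followed by GGA in place of an NGG PAM. Relative to the transcript start, the sites ran from -129 bp at the first base of T1 to 222 bp at the last base of T3, and 2 of the 5 lay upstream of the start. The windows of 50 bp on either side of each site held 13 to 17 CpGs.

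The 150 bases before the start (GRCh37, chr10:75670740-75670889, plus strand) are shown because T1 and T2 lie in them. The capitals mark these 2 sites with their PAMs. This stretch held 19 CpGs and was 72.7% G or C.
PLAU upstream: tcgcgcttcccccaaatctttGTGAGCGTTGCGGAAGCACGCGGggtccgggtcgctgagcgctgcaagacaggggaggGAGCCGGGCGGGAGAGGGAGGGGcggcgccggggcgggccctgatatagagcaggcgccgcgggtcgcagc

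**Figure D1:**
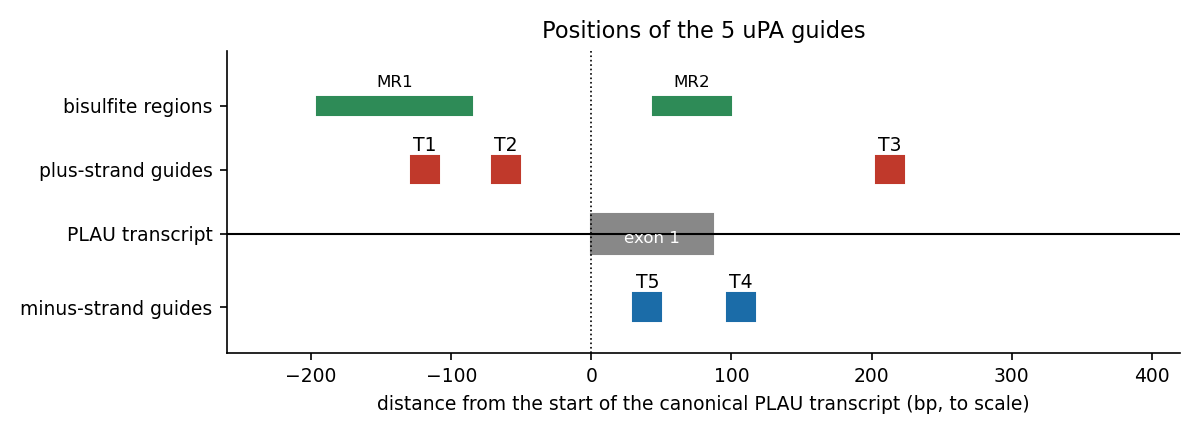
Positions of the guides T1 to T5 in bp from the start of the canonical PLAU transcript, with its exon 1 (87 bp, grey) and the regions MR1 and MR2 that the study read by bisulfite pyrosequencing (green). Plus-strand guides (red) and minus-strand guides (blue) lie on both sides of the start, from -129 to 222 bp.

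RefSeq promoters (GRCh38.p14, 250 bases before to 50 after a start) were at hand for 4 of the 5 members, with 6 promoters in all. The PLAU promoter of the targeted start held 28 CpGs, a number higher than that of 73.8% of the 35116 promoters in the table. The other PLAU promoter held 5, PLAUR 18, the SERPINE2 promoters 8 and 31, and SERPINB2 1. The last 5 bases of each guide with an NGG PAM were searched on both strands as GCACGNGG (T1), GGGAGNGG (T2), GTCCCNGG (T3), GACCGNGG (T4) and TGGCCNGG (T5). The targeted PLAU promoter had 5 matches, of which 2 for T2 overlapped each other. These include the target sites of T1, T2 and T5 themselves, so the count was partly fixed by the guide design. PLAUR, SERPINB2 and each SERPINE2 promoter had 1 match, and the other PLAU promoter had 0. Among all promoters 42.6% held at least 1 match, so that such short matches were common.

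PLAU, which encodes the activator that was targeted, had 106 reads in the pUC19 library. In the fusion libraries the DNMT1 and DNMT3A constructs had 6 reads each, DNMT3B had 1 and EGFP had 4. The control stood far above all 4 fusion libraries, and the fusions with and without a methyltransferase lay in the same low range. In TPM (reads per transcript length, scaled to a fixed sum per library), the level was 2.48 in pUC19 and 0.181, 0.176, 0.0331 and 0.132 in the fusions. The deposited coverage of PLAU was 79.65% with pUC19 but 14.90%, 11.98%, 7.13% and 11.94% with the fusions. In bulk RNA, fewer cells with the transcript and less transcript per cell cannot be told apart.

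Set against pUC19, the rate of PLAU reads was 7.38% of the control rate with the DNMT1 fusion (95% exact interval 2.65 to 16.6). With DNMT3A it was 6.95% (2.49 to 15.6), with DNMT3B 1.26% (0.0315 to 7.15) and with EGFP 5.20% (1.39 to 13.7). Even the upper ends of these intervals, which cover counting error only, reached 16.6% of the control at most. On the log2 scale of TPM + 0.1 the differences were -3.20, -3.23, -4.28 and -3.47. The exact binomial test on the reads of 2 libraries gave adjusted p-values of 8.55e-19, 6.10e-20, 5.77e-24 and 1.26e-19. A gene counted as called when its adjusted p-value did not exceed 0.001 and its fold reached 2. By this rule 1 of the 4 members with reads, PLAU, was called in each fusion library against pUC19, always lower. The rule called 5.29%, 9.45%, 8.89% and 5.77% of all tested genes in these comparisons, and 3.67%, 5.01%, 4.37% and 3.13% as lower. When libraries were assumed to vary with a coefficient of variation of 0.4 (edgeR exact test), PLAU was no longer called in any fusion library, with adjusted p-values from 0.0274 for DNMT3B to 1 for DNMT1. At an assumed coefficient of 0.2 it was called in all 4, with adjusted p-values of at most 3.02e-05 in the same test.

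**Figure D2:**
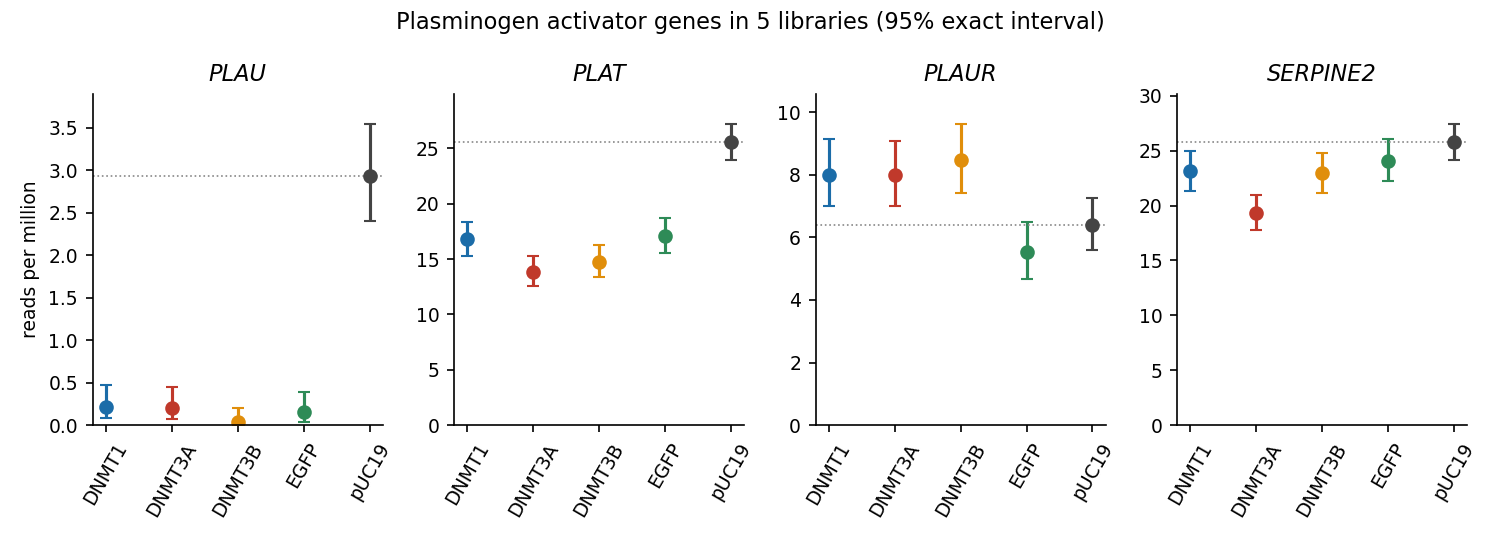
Reads per 1000000 reads of PLAU, PLAT, PLAUR and SERPINE2 (linear axis from 0 in each panel) in the 5 libraries, with 95% exact intervals for counting error. The dotted line is the pUC19 level: PLAU falls from 2.93 to at most 0.216, PLAT lies below the line in all 4 fusions, and PLAUR lies above it except with EGFP.

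Among all 19716 genes with a read in some library, with no filter on reads, the highest of the 4 log2 ratios of PLAU to pUC19 was -3.20. In total 29 genes, PLAU included, were at least this low in all 4 fusion libraries. The other 28 had 1 to 6 reads in pUC19 and 0 in every fusion library, so that their values rest on few reads. Counted from the lowest ratio, PLAU was number 90, 89, 31 and 49 in the fusions. For comparison, 6100 genes were below pUC19 in all 4 fusion libraries by any amount and 3912 were above it. All 4 comparisons share the pUC19 library, so they are not independent of each other.

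**Figure D3:**
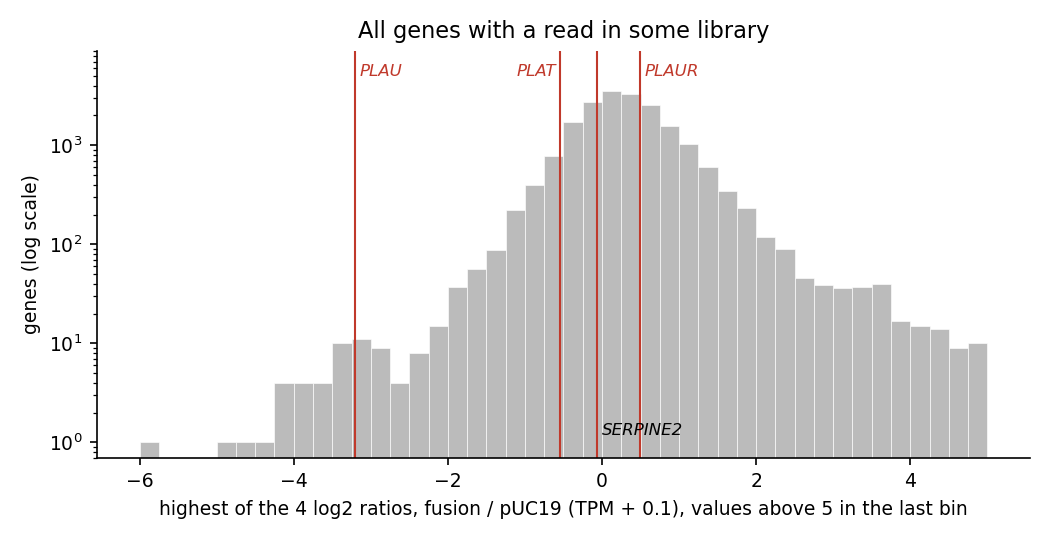
Number of genes (log scale) by the highest of their 4 log2 ratios of TPM + 0.1, fusion over pUC19, for all 19716 genes with a read in some library. Red lines mark the members: PLAU lies in the lower tail at -3.20, PLAT at -0.54, SERPINE2 at -0.06 and PLAUR at 0.49.

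Between the fusion libraries, PLAU could not be told apart at 1 to 6 reads. Its rate with DNMT3B was 24.2% of that with EGFP, with an exact interval from 0.491 to 244, and with DNMT1 and DNMT3A it was 142% (33.7 to 684) and 134% (31.7 to 644) of that with EGFP. The exact binomial test gave adjusted p-values of 0.319, 0.857 and 0.837 for DNMT3B, DNMT1 and DNMT3A against EGFP. These intervals include both a large decrease and a rise, so the depth does not settle whether the methyltransferase domains added to the decrease seen with EGFP. Across the 6 pairs of fusion libraries 0 members were called, against 3.62% of genes for DNMT1 and DNMT3A, 3.59% for DNMT1 and DNMT3B, 1.48% for DNMT1 and EGFP, 0.242% for DNMT3A and DNMT3B, 4.09% for DNMT3A and EGFP, and 3.62% for DNMT3B and EGFP. With the limit on the adjusted p-value raised to 0.05 and the same fold, 0 members were called as well, and PLAU was the member with the fewest reads behind that count.

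C10orf55, which overlaps the targeted region on the other strand, had 1, 2, 4 and 4 reads in the fusions and 6 in pUC19. Whether the counting used strand was not stated, so reads of the 2 genes could be mixed where they overlap. At these counts the transcript was too rare to compare.

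PLAT, the other plasminogen activator, had 465, 408, 401 and 448 reads in the fusions and 923 in pUC19. Its TPM was 11.8, 10.1, 11.2 and 12.5 in the fusions and 18.2 in the control. All 4 fusion libraries were below pUC19 and close to each other. The rate with DNMT1 was 65.7% of the control (95% exact interval 58.6 to 73.5), and the other rates were 54.3% (DNMT3A, 48.2 to 61.1), 57.8% (DNMT3B, 51.3 to 65.1) and 66.8% (EGFP, 59.6 to 74.9). The exact binomial test gave adjusted p-values of 2.72e-13, 1.64e-25, 1.91e-20 and 4.42e-12, but no library reached a fold of 2 and PLAT was not called. At this depth the adjusted p-value alone is passed by 41.0%, 47.1%, 46.6% and 41.5% of all genes in the 4 comparisons, so the p-value by itself sets PLAT apart little. The highest of its 4 log2 ratios was -0.54, and 1485 of the 19716 genes, PLAT included, were at least this low in all 4. Of the fusions, DNMT3A had 81.2% of the EGFP rate (70.8 to 93.1, adjusted exact p = 0.00603), and DNMT1 did not differ from EGFP beyond counting error, at 98.3% (86.1 to 112). With an assumed coefficient of variation of 0.2 between libraries, the edgeR exact test gave PLAT adjusted p-values from 0.269 to 0.735 against pUC19 and 1 for DNMT3A against EGFP.

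With both activators on the TPM scale, the balance between them moved. PLAT was 7.35 times the level of PLAU in pUC19 and 65.5, 57.4, 339 and 94.6 times in the fusions. PLAU made up 12.0% of the summed TPM of both in the control and 1.50%, 1.71%, 0.294% and 1.05% in the fusions. In every library PLAT was thus the more abundant activator transcript, also in the pUC19 control without sgRNA. These ratios carry the counting error of 1 to 6 PLAU reads.

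PLAUR, the receptor that holds uPA at the cell surface, had 222 reads with DNMT1, 235 with DNMT3A, 230 with DNMT3B, 145 with EGFP and 231 in pUC19. Its TPM was 11.4, 11.7 and 13.0 with the methyltransferases, 8.18 with EGFP and 9.23 in the control. The 3 methyltransferase libraries were the highest and the EGFP library was the lowest, with pUC19 between them. Against pUC19 the rate was 125% with DNMT1 (95% exact interval 104 to 151), 125% with DNMT3A (104 to 150), 132% with DNMT3B (110 to 160) and 86.4% with EGFP (69.7 to 107). The adjusted p-values of the exact test were 0.0336, 0.0307, 0.00512 and 0.262, and PLAUR was not called. Set against EGFP, which received the same sgRNAs and dCas9, the rate was 145% with DNMT1 (117 to 180), 145% with DNMT3A (117 to 179) and 153% with DNMT3B (124 to 190), with adjusted exact p-values of 0.00161, 0.00122 and 0.000168. These differences stayed under 2-fold. With an assumed coefficient of variation of 0.2 they did not pass, at adjusted p-values of 1, 0.933 and 0.907 in the edgeR exact test. Among the 3 methyltransferase libraries the PLAUR rates were within counting error of each other, with ratios of 100% (DNMT1 to DNMT3A, 83.1 to 121), 94.6% (DNMT1 to DNMT3B, 78.3 to 114) and 94.3% (DNMT3A to DNMT3B, 78.3 to 114).

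A property of the libraries moved with PLAUR. In genes with 10 to 20 reads per kb, the mean deposited coverage was 47.3%, 46.9% and 47.2% in the DNMT1, DNMT3A and DNMT3B libraries and 42.1% and 41.7% in the EGFP and pUC19 libraries, the same division as in the PLAUR level. The part of this difference in the PLAUR values was not tested. The PLAUR transcript is 55.9% G or C. Relative to the median of the 695 genes within 1 percentage point of that content and with at least 50 reads in every library, the log2 difference from EGFP was 0.56 with DNMT1, 0.44 with DNMT3A and 0.60 with DNMT3B, compared with 0.48, 0.52 and 0.66 without this centring.

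SERPINE2, a serpin that inhibits thrombin, uPA and tissue-type plasminogen activator, had the highest TPM of the members in every library. It had 641 reads with DNMT1, 569 with DNMT3A, 623 with DNMT3B, 632 with EGFP and 931 in pUC19, and its TPM was 19.4, 16.7, 20.7, 20.9 and 21.8. The DNMT3A library was the lowest, and the other 4 lay close together. The rate relative to pUC19 was 75.0% with DNMT3A (95% exact interval 67.5 to 83.4, adjusted exact p = 1.55e-07). It was 89.8% with DNMT1 (81.1 to 99.4), 89.0% with DNMT3B (80.3 to 98.7) and 93.5% with EGFP (84.4 to 104), with adjusted exact p-values of 0.0656, 0.0441 and 0.292. With DNMT3A it was 80.3% of the EGFP rate (71.6 to 90.1, adjusted exact p = 0.000423), and with DNMT3B it was 95.3% (85.1 to 107). No comparison reached a fold of 2. With an assumed coefficient of variation of 0.2, the edgeR exact test gave adjusted p-values of 0.738 for DNMT3A against pUC19 and 1 for DNMT3A against EGFP. The log2 difference of TPM + 0.1 between DNMT3B and pUC19 was -0.08 and changed sign, to 0.01, with TMM-scaled totals.

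SERPINB2, a serpin of activated monocytes and keratinocytes that inhibits uPA, had 0 reads in all 5 libraries. As a one-sided limit, a count of 0 allows up to 3 reads, which is 0.0830 per 1000000 reads in pUC19 and between 0.102 and 0.114 in the fusions. PLAU itself, at 0.0368 to 0.216 per 1000000 reads in the fusions, lay on both sides of these limits. The 4 members with reads summed to 51.8 TPM in pUC19 and 42.8, 38.7, 44.9 and 41.7 TPM in the fusions.

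**Figure D4:**
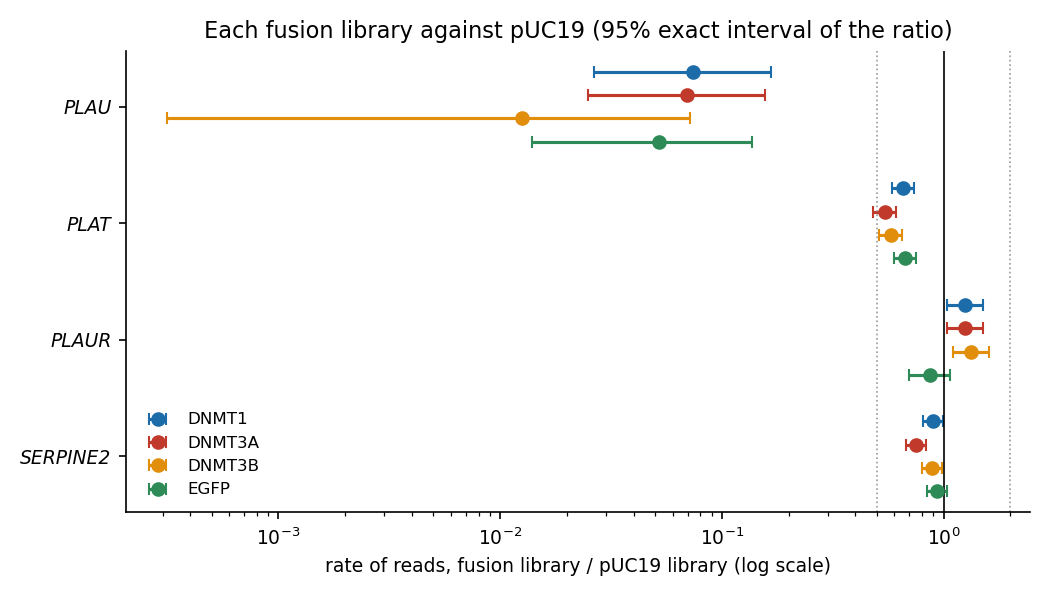
Rate of reads of each member in a fusion library divided by that in pUC19 (log scale), with 95% exact intervals for counting error. The solid line is 1 and the dotted lines are a 2-fold difference either way. Only PLAU lies beyond 2-fold, while PLAT lies from 54.3% to 66.8% of the control, SERPINE2 from 75.0% to 93.5%, and PLAUR above it with the 3 methyltransferases.

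The spread between the 4 constructs was also taken as a measure of error. In an edgeR quasi-likelihood fit of the 4 fusions against pUC19, 118 of 16001 genes (0.737%) passed an adjusted p-value of 0.05, 15 higher and 103 lower in the fusions. PLAU was the only member among them. It passed the low-count filter of this fit only through the pUC19 library, where it was high, so the call gives no separate support. The log2 difference of PLAU was -4.14 (SE 0.58) with an adjusted edgeR p-value of 0.0255. When each fusion library was left out in turn, this p-value ranged from 0.0112 to 0.0482. PLAT was at -0.62 (SE 0.22, adjusted p = 0.1997), PLAUR at 0.32 (SE 0.32, adjusted p = 0.632) and SERPINE2 at -0.12 (SE 0.23, adjusted p = 0.819) in edgeR. In this fit the single pUC19 library is assumed to vary like the fusions. A second edgeR fit compared DNMT3A and DNMT3B, which methylate DNA de novo, with DNMT1 and EGFP. It called 1694 of 15332 genes (11.0%) and none of the 3 members tested, with log2 differences of 0.27 for PLAUR (SE 0.24, adjusted p = 0.497), -0.25 for PLAT (SE 0.16, adjusted p = 0.344) and -0.16 for SERPINE2 (SE 0.16, adjusted p = 0.534). The unadjusted edgeR p-values were 0.292, 0.160 and 0.329, all above 0.05, and DESeq2 called none of these 3 members either. PLAU was removed by the filter on low counts. The PLAUR value rested on EGFP: without that library it was -0.01, and without DNMT1 it was 0.61 (adjusted p = 0.0679 in edgeR).

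The genes whose 4 log2 ratios to pUC19 were most like those of each member were found by the root mean square difference over the 4 fusion libraries, among 13817 other genes with at least 50 reads in some library. For PLAU the nearest of these genes lay further away than for the other members. They were DHRS2, a dehydrogenase/reductase (difference 0.70), FAM78A (0.75) and LOC100129034 (0.88), and DHRS2 fell from 304 reads in pUC19 to 43, 30, 14 and 37 in the fusions. PLAU passed the filter on reads only through its 106 reads in pUC19. The filter left out the 28 other genes at least as low in all 4 fusion libraries, so the distance for PLAU depends on it. For PLAT the nearest genes were MRPL19, a mitochondrial ribosomal protein (0.03), FKBP3, a peptidyl-prolyl isomerase (0.04), and MAP4, a microtubule-associated protein (0.04). For PLAUR they were R3HDM4 (0.06), AQP3, a water and glycerol channel (0.06), and SYT3, a synaptotagmin (0.07). SERPINE2 was most like PVRL3, a nectin (0.03), LOC283070 (0.04) and MAN1A1, a Golgi mannosidase (0.04). Other genes thus had ratios close to those of PLAT, PLAUR and SERPINE2. The differences are the smallest among 13817 genes, over 4 ratios that share the pUC19 library, so small values arise readily and show no link between genes. How small they are for a typical gene was not tested.

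The wider pathway was read from 8 lists with 50 genes in all, of which 49 had a read in some library and 32 had at least 50 reads in some library. Plasminogen itself (PLG), which is made by the liver, had 1 read with DNMT1, 3 with DNMT3A and 0 in the other 3 libraries, and vitronectin (VTN), a ligand of uPAR, had 1 to 6. Against pUC19, 0 of 48 tested list genes were called with DNMT1, 5 of 49 with DNMT3A, 3 of 47 with DNMT3B and 0 of 48 with EGFP, that is 0%, 10.2%, 6.38% and 0% beside the shares of all genes given above. With DNMT1 and EGFP, where no list gene was called, the rule called only 5.29% and 5.77% of all genes. List genes with few reads could hardly be called, so these counts do not set PLAU apart. No list gene was called in the same direction in 3 or more fusions. For genes with at least 10 reads in both libraries together, the median log2 ratio over the lists was 0.03, -0.06, 0.01 and 0.13 in the fusions, beside -0.14, -0.04, -0.03 and -0.0011 over all genes.

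**Figure D5:**
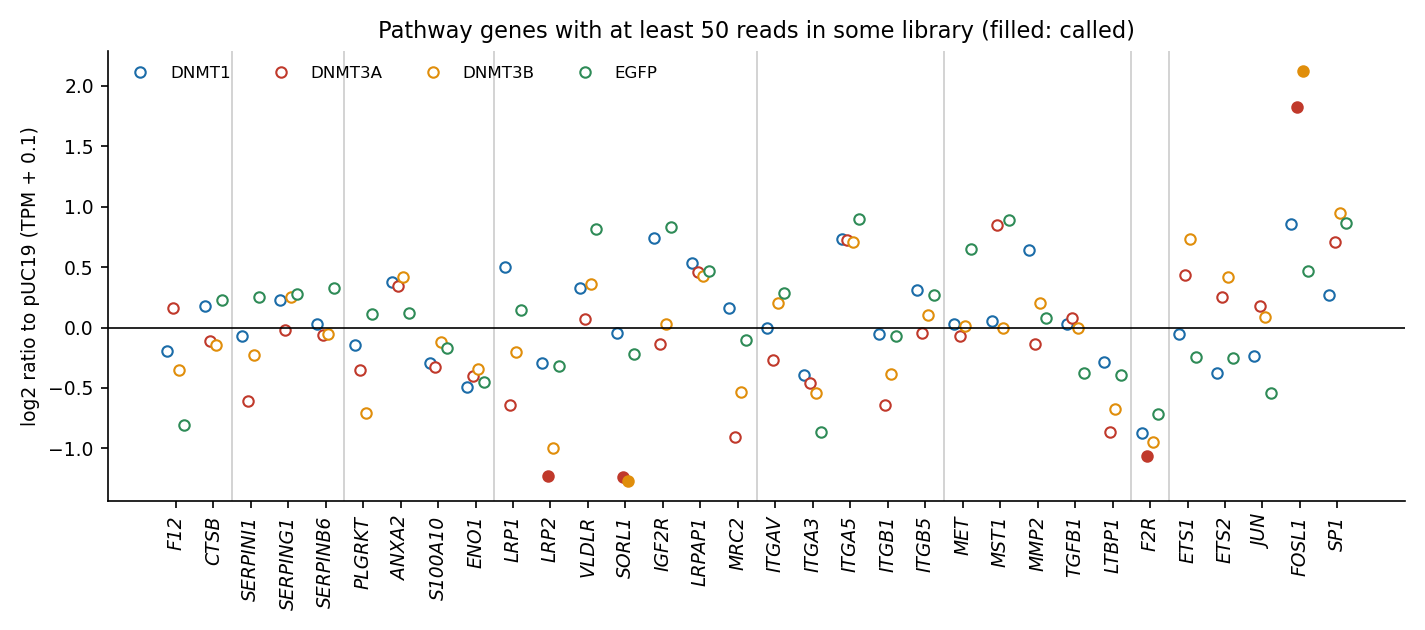
Log2 ratios of TPM + 0.1 to pUC19 for the 32 pathway genes with at least 50 reads in some library, grouped by list (grey lines) and coloured by fusion, with filled points for called genes. FOSL1 is highest with DNMT3A (1.83) and DNMT3B (2.12), and SORL1, LRP2 and F2R hold the filled points below 0.

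The inhibitors list held 8 genes. SERPINB8, an intracellular serpin, was called higher with DNMT3A (27 reads) and DNMT3B (37 reads) against 4 reads in pUC19, with 13 reads for DNMT1 and 17 for EGFP. SERPINB8 was rare in these cells and is named here after its values were seen. SERPINB6, an abundant intracellular serpin, ranged from 53.7 to 70.5 TPM, with its highest level in the EGFP library and 56.1 in pUC19. No gene of this list passed the edgeR fit of the 4 fusions against pUC19.

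Endocytic receptors clear serpin complexes and other ligands. Their list of 7 genes also held LRPAP1, which binds such receptors and is not itself one. It included SORL1 and LRP2, which were called lower in some fusions. SORL1, a sorting receptor of the LDL receptor family that binds uPA complexes, had 759 reads with DNMT1, 334 with DNMT3A, 289 with DNMT3B, 612 with EGFP and 1010 in pUC19. Its TPM was 5.59, 2.39, 2.34, 4.94 and 5.77, so that the DNMT3A and DNMT3B libraries were low and the others close to the control. It was called lower with DNMT3A (log2 -1.24, adjusted exact p = 3.87e-51) and DNMT3B (-1.27, adjusted exact p = 6.96e-54) against pUC19, and for both of them against both DNMT1 and EGFP. LRP2 (megalin) was called lower with DNMT3A alone, at 418 reads against 1263 in pUC19, and had 439 reads with DNMT3B (log2 -0.99). The median log2 ratio of the 7 genes of this list to pUC19 was 0.33, -0.64, -0.21 and 0.14 in the fusions.

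Among the 5 regulators of PLAU transcription, FOSL1, a subunit of the AP-1 factor, had 55 reads with DNMT1, 113 with DNMT3A, 123 with DNMT3B, 38 with EGFP and 38 in pUC19. It was called higher with DNMT3A (log2 1.83, adjusted exact p = 4.00e-13) and DNMT3B (2.12, adjusted exact p = 3.00e-17) against pUC19, with DNMT3A against EGFP, and with DNMT3B against both DNMT1 and EGFP. ETS1, ETS2, JUN and SP1 were not called in any fusion library against pUC19. The median of the 5 regulators was -0.05, 0.43, 0.73 and -0.24 in the fusions. F2R, the thrombin receptor, had 910, 818, 786 and 926 reads in the fusions and 2152 in pUC19, and was called lower with DNMT3A (log2 -1.07), while the other 3 values, from -0.95 to -0.72, did not reach 2-fold. LRP2 and F2R are likewise named after their values were seen.

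The remaining lists had no called gene against pUC19. They were the activators and activators of pro-uPA (7 genes), plasminogen binding at the cell surface (4), uPAR partners (7) and downstream substrates (10). Annexin A2 (ANXA2), a plasminogen-binding protein of the cell surface, was at 169, 166, 174 and 142 TPM in the fusions and at 131 TPM in pUC19. The edgeR fit of the 4 fusions against pUC19 called 0 of the 37 list genes it tested, beside 0.737% of all genes. Of these, 6 had an unadjusted edgeR p-value under 0.05, and DESeq2 called 2 of 32 list genes, beside 7.10% of all genes, with F2R lower and ITGA5, an integrin subunit, higher. The fit of DNMT3A and DNMT3B against DNMT1 and EGFP called 8 of 34 (23.5%), beside 11.0% of all genes, with FOSL1 and ETS2 higher and SORL1, LRP1, LRP2, MRC2, IGF2R and ITGB1 lower, of which the first 5 are endocytic receptors. Transcripts of these 5 receptors were long, from 6004 bases (MRC2) to 15735 (LRP2). From the same list, VLDLR (3646 bases) and LRPAP1 (10536 bases) were not called, and the part of length was not tested. SORL1 was at -1.21 (SE 0.17, adjusted p = 0.00621 in edgeR) and FOSL1 at 1.27 (SE 0.30, adjusted p = 0.0288). Without the DNMT3A library these adjusted edgeR p-values rose to 0.105 and 0.186, and without DNMT3B to 0.0727 and 0.235, where the fit called 18 and 53 genes in all.

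The libraries held 26246000 to 36143000 reads on genes (rounded to the nearest 1000). The rows of DNMT1, DNMT3A and DNMT3B, which also count the fusion transcripts, took 3.23% to 6.02% of reads in the methyltransferase libraries and about 0.05% in the other libraries. Over all genes the median log2 ratio to pUC19 was -0.15 with DNMT1 and between -0.06 and -0.0032 with the other fusions. The labelled cell line was checked by 4 marker genes, of which all had reads in every library. IRS4 was at 66.3 to 76.5 TPM in the fusions and 396 in pUC19 and NEFM at 34.3 to 60.2 and 193, while PAX2 was at 6.08 to 7.72 and 7.55 and LIN28B at 31.6 to 64.4 and 50.99. The summed TPM of the 4 markers was 166 to 173 in the fusions and 647 in pUC19, a difference that moves with that of PLAU and whose part in it was not tested. Markers of endothelial cells summed to 0.579 to 0.892 TPM with CDH5 at 0, those of fibroblasts to 3.87 to 8.02 with COL1A2 at 0, and those of leukocytes to 3.44 to 6.18, nearly all from CD68.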

How the data were processed

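Poly(A) RNA of 5 groups, with 1 library each, was read on an Ion Proton. After filtering by quality, adaptor and length, the authors used tmap to align reads to RefSeq transcripts of hg19, kept unique matches, and deposited read counts per gene, TPM values and a coverage in percent. Counts are whole numbers without normalization. The deposited TPM values were recomputed from counts and lengths. The deposited coverage was not defined and was read as the percent of the transcript with a read. Genes missing from a table were set to 0. The tmap version, the RefSeq release, the strand setting and the authors' test were not given in the sources used here.

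The 5 members and the pathway lists were chosen with earlier results of these data known. 1 gene of these lists is not reported here and was left out of the list counts. For each of the 10 pairs of libraries, a two-sided exact binomial test conditional on both totals (scipy 1.17.1) was made per gene, adjusted by Benjamini-Hochberg over all genes with a read in either library, and called when the adjusted p-value did not exceed 0.001 and the fold of TPM + 0.1 reached 2, which understates changes of low genes. Two-sided quasi-likelihood fits used edgeR 4.0.16 (R 4.3.3) with TMM scaling and filterByExpr at an adjusted p-value under 0.05, and DESeq2 1.42.0 was an alternative. Intervals at 95% and floors of 3 reads cover counting error only. Named besides the members were list genes called alike in at least 3 of the 4 fusions, list genes called between DNMT3A or DNMT3B and both DNMT1 and EGFP, C10orf55, and the 3 nearest patterns per member with at least 50 reads; any others were named after their values were seen. Guide sequences came from the study's supplementary table and were matched to GRCh37. On simulated counts with 200 changed genes per test, all 200 were recovered. For DNMT1 against pUC19 (18681 genes), where only read sampling was simulated, there were 0 false calls. There were 10 for the 4 fusions against pUC19 (15778 genes) and 8 for the fit of 2 fusions against 2 (15279 genes). These numbers hold for the simulated counts only. Recovery at the read counts, folds and spread of the members was not tested.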

Additional observations from a re-analysis of the deposited data

Results flagged for a closer look

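Beyond counting error alone, the reads of 3 members differed between fusion libraries, by the exact binomial test of the reads of both fusion libraries with an adjusted p-value not above 0.05. All were differences under 2-fold between single libraries. PLAUR was higher with DNMT1 (adjusted exact p = 0.00161), DNMT3A (0.00122) and DNMT3B (0.000168) than with EGFP. SERPINE2 was lower with DNMT3A than with DNMT1 (adjusted exact p = 0.00461), DNMT3B (0.0155) and EGFP (0.000423). PLAT was lower with DNMT3A than with DNMT1 (adjusted exact p = 0.0112) and EGFP (0.00603). With an assumed coefficient of variation of 0.2 between libraries, none of these 8 differences passed 0.05 in the edgeR exact test, with adjusted p-values from 0.907 to 1. The coefficient that edgeR fitted was 0.205 with the 4 fusions as 1 arm against pUC19, where the single pUC19 library adds nothing to the spread. It was 0.135 within the arms of DNMT3A with DNMT3B and of DNMT1 with EGFP, after the difference between these arms was taken out. Both measure spread between constructs and not between replicates. The exact test was not run at the lower value.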

How the results depend on the processing

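No paired analysis was possible because each group had 1 library and the labels give no replicate numbers. PLAU kept its call and its direction in all 4 fusion libraries against pUC19 under every alternative but 1: with an assumed coefficient of variation of 0.4 in the edgeR exact test, 0 members were called, and the log2 values of PLAU, unchanged at -3.20, -3.23, -4.28 and -3.47 for DNMT1, DNMT3A, DNMT3B and EGFP, had adjusted p-values of 1, 0.513, 0.0274 and 0.301. The common coefficients of variation fitted by edgeR were 0.205 with the 4 fusions as 1 arm and 0.135 within the arms of DNMT3A with DNMT3B and of DNMT1 with EGFP. A pseudocount of 1 TPM brought the PLAU values to between -1.75 and -1.56. In the fit of the 4 fusions, DESeq2 gave PLAU no adjusted p-value, and leaving out a fusion moved its log2 value between -4.37 and -3.84.

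Signs turned only in uncalled differences. With TMM-scaled totals they were SERPINE2 with DNMT3B against pUC19 (0.014) and EGFP (0.050), PLAUR with DNMT1 against DNMT3A (0.022), and PLAT with DNMT1 against EGFP (0.0063). Thinning turned PLAU with DNMT1 against DNMT3A (-0.030), and totals without the DNMT rows turned SERPINE2 with DNMT3B against EGFP (0.032). Centring on genes of like GC content, added after seeing the data, turned PLAUR with DNMT1 against DNMT3A (0.12), SERPINE2 with DNMT1 against DNMT3B (0.037) and EGFP (0.053), and PLAT with DNMT1 against EGFP (0.049). Without EGFP, PLAUR in the fit of DNMT3A and DNMT3B turned to -0.0057, the lowest value when a library was left out, and without DNMT1 it was highest at 0.61. The causes of these turns were not tested.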
